A study of Mus musculus with 9 samples.

Results

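Described here are 10 immediate early genes: the zinc finger factors Egr1, Egr2 and Egr3, the orphan nuclear receptors Nr4a1, Nr4a2 and Nr4a3, and the AP-1 subunits Fos, Fosb, Jun and Junb. They were chosen by name, with earlier results of these data known. Each was found once among the 55471 gene identifiers of the count files. All 10 passed the filter on low counts and were among the 14918 genes tested. The series compared 2 groups of OT-I CD8+ T cells, which carry a transgenic receptor for an ovalbumin peptide, by RNA sequencing. The control group (Bdh1-WT;shCtrl, n = 4) had an intact Bdh1 gene and a hairpin against firefly luciferase, which mouse cells do not have. The DKO group (Bdh1-KO;shOxct1, n = 5) was labelled a Bdh1 knockout and carried a hairpin against Oxct1, so that 2 enzymes of ketone body use were targeted. The cells of both groups had been stimulated in culture through CD3 and CD28 with IL-2, transduced, sorted on the Ametrine reporter and given to naive C57BL/6 (CD45.1) hosts, which kept lymphocytes of their own. Infection was with LmOVA, an ovalbumin-carrying strain of Listeria monocytogenes, and the transferred cells were recovered by a CD45.2 and Ametrine sort on day 7. The labels give no age of the animals, no driver for the Bdh1 deletion and no statement that replicates came from separate animals, so p-values measure the spread between these libraries, which may be partly technical.

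Immediate early genes are transcribed within minutes of a stimulus from factors that are already present, such as SRF with its ternary complex partners and CREB, and their messages are short-lived. In T cells they respond to the antigen receptor through ERK and calcium signalling. EGR and NR4A proteins also limit the response: Egr2 and Egr3 induce inhibitors of receptor signalling, and the NR4A receptors are linked to tolerance and exhaustion. FOS and JUN proteins pair through leucine zippers to form AP-1, which works with NFAT at cytokine genes.

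The libraries held between 45205993 and 59853080 counts in genes. The targeted genes were lower in DKO, the direction that the labels give: Oxct1 was at 63.2 ± 5.73 CPM (counts scaled to a library of 1000000, SD) in control and 5.16 ± 0.370 CPM in DKO, and Bdh1 at 30.5 ± 4.17 and 10.6 ± 1.24 CPM. The DKO means were 0.0817 and 0.349 of the control means, so RNA of both genes remained. The source of the remaining RNA was not tested. Of the first 2 principal components of log2 CPM, control replicate 1 stood apart on the first, at -79.1 against -7.25 to 23.5 in the others, and control replicate 3 on the second, at -70.2 against -5.59 to 20.2. Results are therefore also given without them. All 8 CD8 T cell markers exceeded 1 CPM, and their summed level was 6343 to 8545 CPM in control and 5864 to 6385 CPM in DKO. The B cell list exceeded 1 CPM for 2 of 10 genes, summed to 179.9 to 264.8 and 187.8 to 210.3 CPM, led by Ighm (208.7 and 188.3 CPM), and had no count of Pax5 in any library. The erythroid and platelet list (4 of 9 genes above 1 CPM, no count of Gp1bb) summed to 6.88 to 36.1 CPM in control and 10.3 to 35.7 CPM in DKO, the CD4 T cell list (2 of 4) to 30.7 to 39.3 and 34.6 to 46.6 CPM, and the NK cell list (3 of 5) to 121.3 to 172.5 and 96.9 to 129.0 CPM.

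RefSeq (GRCm38.p6) supplied promoter sequences for 8 of the members, from 250 bases before the transcription start to 50 after it, and Egr1 and Egr3 had none in that table. The core of the cyclic AMP response element (CRE), TGACG on either strand, was present in the promoters of 7 of these 8 genes (all but Jun) and in 20.8% of the 32851 promoters of the table. It was found in 9 of the 12 promoters listed for the members, of which 5 belong to Egr2 and overlap in part. The full palindrome TGACGTCA (1.79% of all promoters) and the AP-1 site TGANTCA (7.81%) were found in none of the 12. The EGR site GCGNGGGCG on either strand was found in Fosb, Nr4a1 and Nr4a2 (5.55% of all promoters), and the CArG box, to which SRF binds, in Egr2 alone (1.63%). These are matches of letters from 250 bases before the start to 50 after it, and sites further out were not searched. They do not show that a factor was bound. The 100 bases just before the start are printed for 1 Egr, 1 Nr4a and 2 Fos genes, 5′ to 3′ on the gene's strand, because they hold these sites close to the start. Capitals mark CRE cores, EGR sites and the CArG box.

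Egr2, chr10:67537769-67537868, plus strand: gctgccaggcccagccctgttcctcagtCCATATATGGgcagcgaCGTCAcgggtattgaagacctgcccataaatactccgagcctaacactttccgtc
Nr4a1, chr15:101266746-101266845, plus strand: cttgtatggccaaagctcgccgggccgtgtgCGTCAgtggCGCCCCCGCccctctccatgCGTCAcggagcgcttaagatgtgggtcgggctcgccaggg
Fos, chr12:85473790-85473889, plus strand: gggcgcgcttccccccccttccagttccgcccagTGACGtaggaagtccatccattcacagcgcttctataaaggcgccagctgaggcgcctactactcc
Fosb, chr7:19310046-19310145, minus strand: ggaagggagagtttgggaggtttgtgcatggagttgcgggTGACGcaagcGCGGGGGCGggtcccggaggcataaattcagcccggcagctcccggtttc
In the Egr2 stretch the CArG box, at -72 to -63 from the start, and a CRE core at -55 to -51 lie close together. In Nr4a1 the EGR site, at -60 to -52, lies between CRE cores at -69 to -65 and -40 to -36, and in Fosb it follows the CRE core at -60 to -56. The Fos core in this stretch lay at -66 to -62.

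Of the 10 genes, 1 rose in DKO and none fell at an adjusted p of 0.05 by edgeR's quasi-likelihood test. Of the 14918 genes tested 2.83% passed, and 1.32% passed as higher. The gene that rose was Egr1. The remaining 9 did not pass, at adjusted p from 0.251 to 0.958 in edgeR's test. The median log2 fold change of the 10 was 0.43, beside -0.01 over all genes tested, and 8 of the 10 estimates were above 0, beside 48.6% of all genes. At an unadjusted p under 0.05 there were 3 (Egr1, Nr4a1 and Nr4a3), beside 16.0% of all genes, and 1 (Egr1) had CPM ranges apart in the 2 groups, beside 8.71%. DESeq2 and limma-voom also called 1 of the 10, Egr1.

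**Figure D1:**
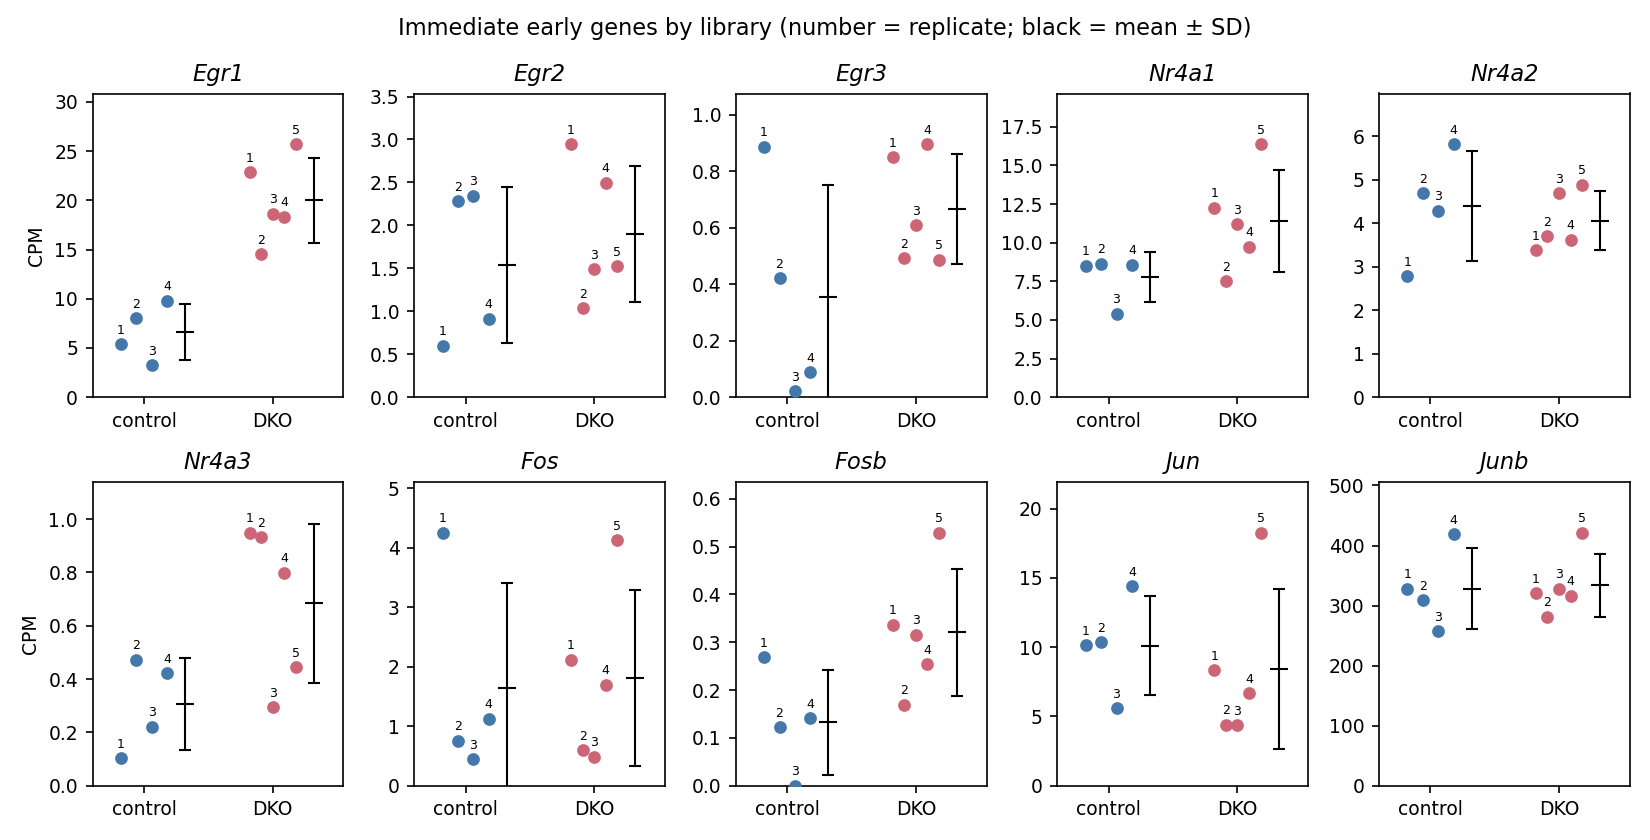
Level of each of the 10 genes in CPM (vertical axes, starting at 0 and scaled to each gene) in the control (blue) and DKO (red) libraries, with the replicate number over each point and the mean ± SD in black, cut at 0 where it would go below. For Egr1 the 5 DKO libraries lie between 14.6 and 25.7 CPM, all above the control libraries, and for the other 9 genes the groups overlap.

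Egr1, the EGR factor induced most widely by growth factor and antigen receptor signals through ERK and SRF, was at 5.39, 8.03, 3.25 and 9.81 CPM in control replicates 1 to 4 and at 22.9, 14.6, 18.6, 18.3 and 25.7 CPM in DKO replicates 1 to 5. Every DKO library lay above every control library, and the lowest DKO value was well clear of the highest control value. The mean rose from 6.62 ± 2.89 CPM (SD, n = 4 controls) to 20.01 ± 4.34 CPM (SD, n = 5 DKO), on 1424 and 5056 counts in all. The log2 fold change was 1.59 (SE 0.28, 95% interval 0.97 to 2.21, adjusted p 0.0143, edgeR's quasi-likelihood test), which as a fold is 1.96 to 4.64. Among the 197 genes called higher, Egr1 ranked 42 by size of change. Its call was kept without each library in turn, with adjusted p of 0.0166 to 0.0425 in edgeR's test. It was also kept without control replicates 1 and 3 together, where the log2 fold change was 1.15 (adjusted p 0.0185, edgeR). In bulk RNA, more cells that express Egr1 and more Egr1 RNA per cell cannot be told apart. The gene (ENSMUSG00000038418.7) is a plus-strand, protein-coding gene at 34859823 to 34864984 on chromosome 18 in GENCODE M21 (GRCm38), and no other annotated gene overlaps it.

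Egr2 and Egr3, the EGR members best known for restraining T cell activation, were far scarcer. Egr2 (ENSMUSG00000037868.15, chromosome 10, 67535475 to 67542188, plus strand) was at 0.598, 2.28, 2.34 and 0.915 CPM in control and at 2.95, 1.03, 1.49, 2.49 and 1.52 CPM in DKO. DKO replicates 1 and 4 lay above all controls, and control replicates 1 and 4 below all DKO libraries, with the other 5 libraries in the shared range. For Egr2 the log2 fold change was 0.31 (95% interval -0.64 to 1.25, adjusted p 0.779, edgeR). Egr3 (ENSMUSG00000033730.4, chromosome 14, 70077203 to 70082614, plus strand) had 43, 24, 1 and 5 counts in control and 43, 29, 29, 46 and 23 in DKO. Control replicate 1 held as much Egr3 as the highest DKO libraries, while control replicates 3 and 4 were nearly without it. Its log2 fold change of 0.91 had a 95% interval of -0.61 to 2.42 (adjusted p 0.568, edgeR). Without control replicate 1 the estimate was 1.85 and still did not pass (adjusted p 0.134, edgeR). As a fold the interval in all libraries was 0.658 to 5.36.

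Nr4a1 encodes NUR77, a standard reporter of antigen receptor signal strength. It was at 8.52, 8.64, 5.40 and 8.57 CPM in control and at 12.3, 7.50, 11.2, 9.74 and 16.4 CPM in DKO. DKO replicates 1, 3, 4 and 5 lay above all controls, whereas DKO replicate 2 lay among them, and control replicate 3 was lower than its own group. The means were 7.78 ± 1.59 (SD, n = 4) and 11.4 ± 3.30 CPM (SD, n = 5). The log2 fold change of 0.55 (SE 0.22, 95% interval 0.07 to 1.04) had an unadjusted p of 0.0294 and an adjusted p of 0.251 in edgeR's test, so Nr4a1 did not pass, nor did it under any of the 18 alternatives (adjusted p 0.121 to 0.588). The gene (ENSMUSG00000023034.7) lies on the plus strand of chromosome 15, 101254269 to 101274795.

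Nr4a2 (NURR1) had an estimate below 0, which turned to 0.048 without control replicate 4. It was at 2.79, 4.70, 4.29 and 5.82 CPM in control and between 3.38 and 4.89 CPM in DKO, so that the DKO range fell within the control range. Its log2 fold change was -0.12 with a 95% interval of -0.59 to 0.35 (adjusted p 0.831, edgeR), or 0.665 to 1.28 as a fold. Nr4a3 (NOR1), the receptor with the lowest level of the family, had 5, 27, 10 and 24 counts in control and 48, 55, 14, 41 and 21 in DKO. DKO replicates 1, 2 and 4 were above all controls, at 0.949, 0.932 and 0.799 CPM, and DKO replicates 3 and 5 were within the control range. The log2 fold change was 1.15 (SE 0.49, 95% interval 0.07 to 2.23), with an unadjusted p of 0.0393 and an adjusted p of 0.281 in edgeR's test. Nr4a2 (ENSMUSG00000026826.13) lies on the minus strand of chromosome 2, 57106830 to 57124003, and Nr4a3 (ENSMUSG00000028341.9) on the plus strand of chromosome 4, 48045153 to 48086447.

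The Fos genes, whose proteins cannot form AP-1 without a Jun partner, did not pass. Fos (ENSMUSG00000021250.13, chromosome 12, 85473890 to 85477273, plus strand) was at 4.25, 0.753, 0.442 and 1.13 CPM in control and at 2.12, 0.593, 0.483, 1.70 and 4.13 CPM in DKO. Control replicate 1 and DKO replicate 5 were highest, so each group had its own high library. The log2 fold change was 0.13 (95% interval -1.42 to 1.69, adjusted p 0.952, edgeR). It was 1.19 without control replicate 1 and -0.43 without DKO replicate 5, neither of which passed (adjusted p 0.335 and 0.835, edgeR). The sign also turned without other single libraries, to -0.18 without control replicate 3, to -0.11 without control replicate 2 and to -0.01 without control replicate 4.

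Fosb (ENSMUSG00000003545.3, chromosome 7, 19302696 to 19310051, minus strand) was the scarcest member, with 13, 7, 0 and 8 counts in control and 17, 10, 15, 13 and 25 in DKO. The 0 in control replicate 3 allows a level of up to 0.0664 CPM, a limit that covers counting error only. DKO replicates 1, 3 and 5 were above all controls, and the other 2 were within the control range. The log2 fold change of 1.24 (95% interval -0.20 to 2.68) did not pass (adjusted p 0.391, edgeR).

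Jun (ENSMUSG00000052684.4, chromosome 4, 95049034 to 95052222, minus strand), the AP-1 subunit that can pair with itself as well as with Fos proteins, was at 10.2, 10.3, 5.57 and 14.4 CPM in control and at 8.32, 4.40, 4.37, 6.66 and 18.3 CPM in DKO. DKO replicates 2 and 3 were below all controls, while DKO replicate 5 was above them all. The log2 fold change was -0.27 (95% interval -1.17 to 0.63, adjusted p 0.794, edgeR), and it was -0.77 without DKO replicate 5 (adjusted p 0.278, edgeR). The antisense gene Junos overlaps Jun by 689 bases, and the sum of its strand columns was 1.32 times its unstranded count, since reads shared by both genes are left out of the latter. With the summed columns the log2 fold change was -0.27 again.

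Junb (ENSMUSG00000052837.6, chromosome 8, 84974484 to 84978718, minus strand) encodes a Jun protein that can partner BATF in effector T cells. It was at 328.2, 308.5, 257.1 and 419.2 CPM in control and at 320.6, 281.1, 328.1, 316.7 and 421.5 CPM in DKO. The groups had nearly the same range. Its log2 fold change of 0.02 had the narrowest 95% interval of the 10, -0.29 to 0.34, or 0.816 to 1.27 as a fold (adjusted p 0.958, edgeR). Between 11623 and 23835 counts per library stood behind these values. Junb overlaps Prdx2 on the opposite strand by 351 bases, and the strand columns summed to 1.005 times its unstranded count.

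**Figure D2:**
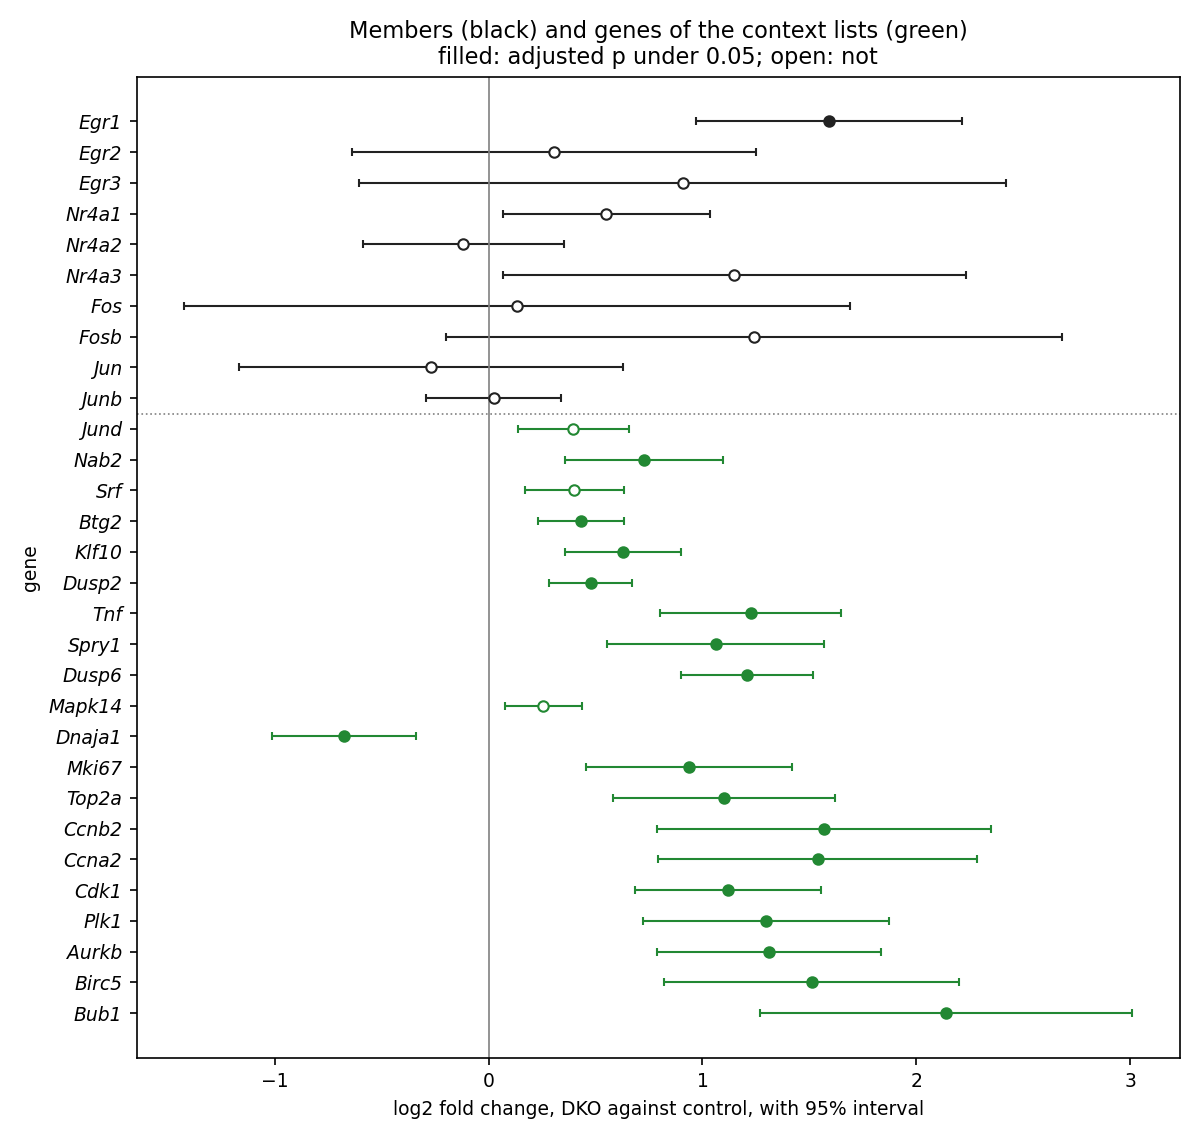
Log2 fold change of DKO against control (horizontal axis) with its 95% interval for the 10 immediate early genes (black) and the genes of related lists (green). Points are filled where the adjusted p was under 0.05; among the black points Egr1 alone is filled, at 1.59.

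Per kilobase of exon, Junb stood far above the rest. On the scale of CPM per kilobase of merged exons, a level, Junb was at a mean ± SD of 142.7 ± 29.4 for the 4 controls and 145.0 ± 22.7 for the 5 DKO libraries, and its ranges did not overlap those of the next gene in either group. In control the order then ran Jun (3.17 ± 1.13), Nr4a1 (2.22 ± 0.453), Egr1 (1.48 ± 0.644), Nr4a2 (1.08 ± 0.309), Fos (0.699 ± 0.749) and Egr2 (0.451 ± 0.267). Each of these overlapped its neighbour in the order, so the steps between neighbours were within their spread. In DKO Egr1 came after Junb, at 4.46 ± 0.967, followed by Nr4a1 (3.25 ± 0.940) and Jun (2.64 ± 1.80), whose ranges overlapped one with the next. Nr4a2, at 1.000 ± 0.168 in DKO, lay below the whole range of Jun. Fos (0.766 ± 0.628) and Egr2 (0.559 ± 0.233) followed, and Egr3 lay below the whole range of Egr2. At the bottom of both groups came Egr3 (0.0805 in control and 0.151 in DKO), Nr4a3 (0.0509 and 0.114) and Fosb (0.0213 and 0.0514).

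The members differed in how tightly the libraries of 1 group held together. The coefficient of variation of CPM was 20.4% in control and 28.9% in DKO for Nr4a1, and 20.6% and 15.7% for Junb. For Fos it was 107.2% and 81.9%, and for Jun 35.6% and 68.5%. The scarce Egr3 varied by 111.6% in control and 29.3% in DKO, and Fosb by 82.6% and 41.6%. Egr1 varied by 43.7% in control and 21.7% in DKO. For Egr2, Nr4a2, Fos, Jun and Junb the SD within either group exceeded the difference between the group means.

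High and low values often came from the same libraries across families, but not for every gene. DKO replicate 5 was the highest of the DKO libraries for 7 of the 10 genes (Egr1, Nr4a1, Nr4a2, Fos, Fosb, Jun and Junb) and the highest of all 9 libraries for 5. Control replicate 3 was the lowest of the controls for 7 genes (Egr1, Egr3, Nr4a1, Fos, Fosb, Jun and Junb) and the lowest of all 9 for 6. DKO replicate 2 was the lowest of its group for 5 genes. Egr2 followed another order, with its highest control value in replicate 3 and its highest DKO value in replicate 1. Within the groups, Nr4a3 was highest in control replicate 2 and DKO replicate 1. For Egr3, DKO replicate 5 was the lowest of its group. Control replicate 1 was the highest control for Egr3, Fos and Fosb and the lowest for Egr2, Nr4a2 and Nr4a3. DKO replicate 5 also had the highest level of all 9 mitotic genes described further on (Mki67 at 77.9 CPM, against 47.4 to 62.5 CPM in the other DKO libraries). The part of mitotic, heat shock and myeloid gene levels in the level of these 10 genes was not tested.

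**Figure D3:**
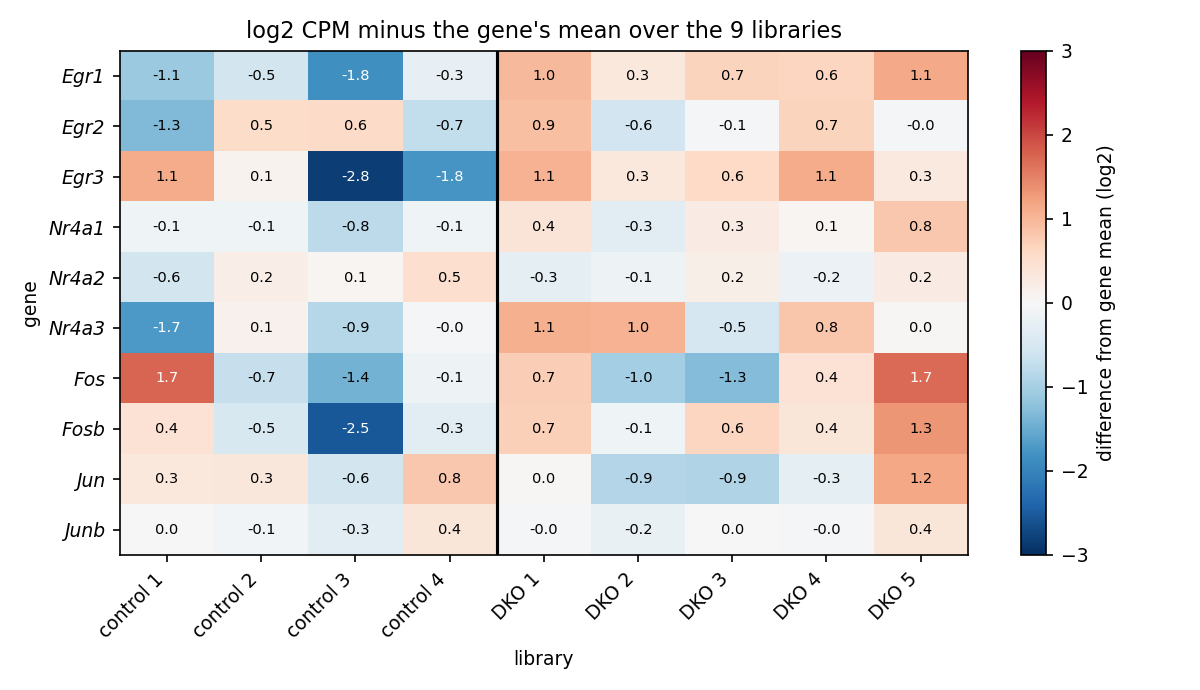
Log2 CPM of each gene (rows) in each library (columns) minus the gene's mean over the 9 libraries, in log2 units, red above and blue below the mean, with the value in each cell. The Egr1 row changes from blue to red at the line between the groups, while the Fos row is reddest in control replicate 1 and DKO replicate 5, at 1.7 each.

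Whether members changed unequally was tested on ratios of counts within a library, which do not depend on scaling between libraries. Of 7 pairs, none passed after Benjamini-Hochberg adjustment over the pairs (exact permutation test over all relabellings of the 9 libraries, two-sided). The smallest p this design allows is 0.00794, which for 1 pair alone adjusts to 0.0556. The log2 ratio of Egr1 to Nr4a1 reached it, at -0.658, -0.106, -0.723 and 0.196 in control and 0.897, 0.952, 0.731, 0.908 and 0.649 in DKO. The groups did not overlap, and their means differed by 1.15 (exact permutation p 0.00794, adjusted p 0.0556). Egr1 was therefore less abundant than Nr4a1 in 3 of 4 control libraries and more abundant in 5 of 5 DKO libraries, in counts not corrected for length. The log2 ratio of Egr1 to Egr2 was 2.18 ± 1.33 (SD) over the controls and 3.44 ± 0.522 over the DKO libraries (exact permutation p 0.0714, adjusted p 0.250). For Fos to Jun the means were -3.03 and -2.39 (exact permutation p 0.325, adjusted p 0.456), for Junb to Jun 5.07 and 5.51 (exact permutation p 0.270, adjusted p 0.456), and for Fosb to Fos -3.07 and -2.03 (exact permutation p 0.135, adjusted p 0.315). The ratio of Nr4a1 to Nr4a3 was 4.64 in control and 4.06 in DKO (exact permutation p 0.413, adjusted p 0.482), and that of Egr1 to Egr3 was 4.66 and 4.84 (exact permutation p 0.802 before and after adjustment).

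**Figure D4:**
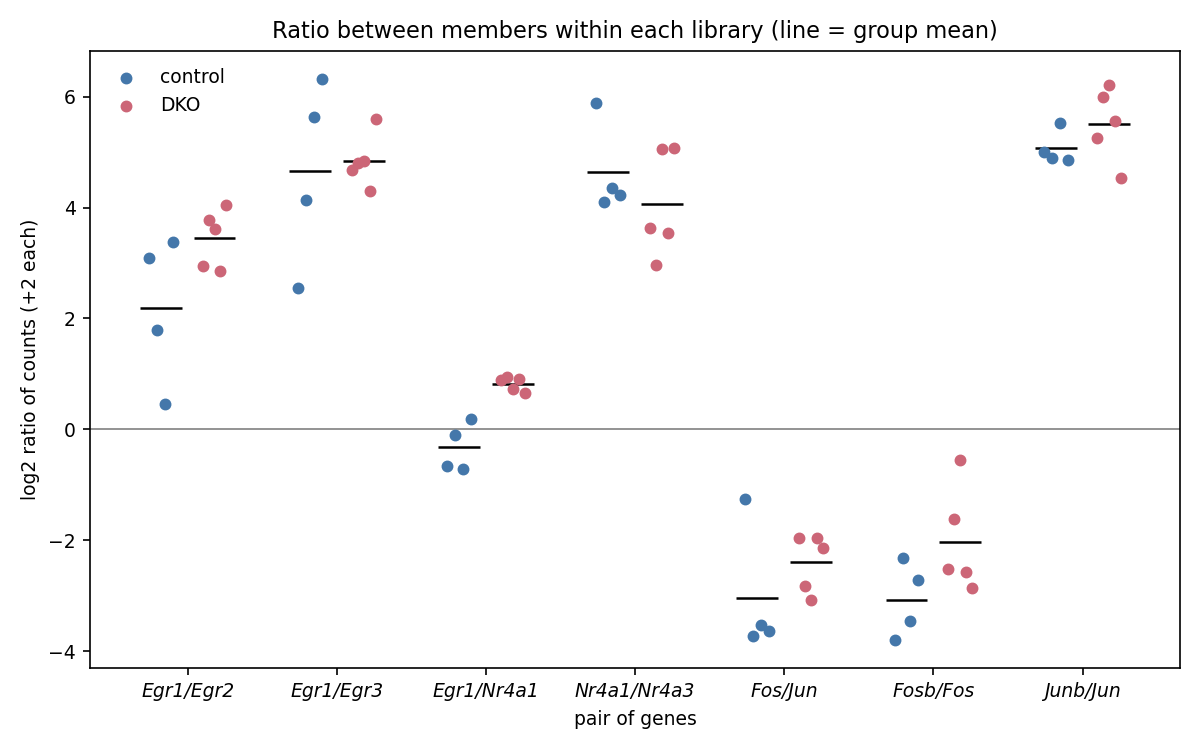
Log2 ratio of the counts of 2 genes within each library (vertical axis, 2 counts added to each gene) for 7 pairs, in control (blue) and DKO (red), with the group mean as a line. For Egr1/Nr4a1 the 4 control points lie between -0.723 and 0.196 and the 5 DKO points between 0.649 and 0.952.

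The lists around these genes, chosen with earlier results of these data known, were read beside the shares over all genes. These were 2.83% called by edgeR and 16.0% at an unadjusted p under 0.05 in the same test. DESeq2 called 1010 of all genes and limma-voom 996. Among the partners and corepressors of EGR proteins, 1 of 2 tested genes passed: Nab2, which binds EGR proteins and represses their targets and is itself an EGR target, rose from 9.23 ± 2.19 to 15.3 ± 1.86 CPM (adjusted p 0.0440 by edgeR's test, log2 fold change 0.73, SE 0.17). It passed without control replicate 1 or 3 and was lost without any other single library (adjusted p 0.0580 to 0.121). The strand columns summed to 2.34 times its unstranded count, and with them its log2 fold change was 0.68 (adjusted p 0.0270, edgeR). The summed columns include reads shared with the opposite strand, which cannot be assigned to either gene, so this value is uncertain. Nab1 did not pass, and Egr4 had too few counts to test.

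Of 25 other immediate early genes tested, 3 rose and none fell, with a median log2 fold change of 0.11. At an unadjusted p under 0.05 in edgeR's test, in either direction, there were 8, beside 16.0% of all genes. Estimates were above 0 for 16 of the 25, beside 48.6% of all genes. DESeq2 and limma-voom called 4 each. Dusp2, a nuclear phosphatase of ERK, went from 300.2 ± 27.6 to 417.8 ± 35.2 CPM (log2 fold change 0.48, adjusted p 0.0171, edgeR). Klf10, a zinc finger factor of TGF-beta signalling, went from 107.1 ± 18.6 to 165.3 ± 17.0 CPM (0.63, adjusted p 0.0238, edgeR), and Btg2, an antiproliferative gene, from 525.7 ± 66.6 to 709.8 ± 35.4 CPM (0.43, adjusted p 0.0312, edgeR). The 3 genes had no overlap of CPM between the groups, as had 8.71% of all genes tested. Having been picked by a test on the same values, they gain no support from this. The count of 3 was 4 without control replicate 1, 1 without control replicate 4, DKO replicate 4 or DKO replicate 5, and 0 without DKO replicate 1. Dusp2 was lost without DKO replicate 1 only (adjusted p 0.0530, edgeR), Klf10 also without control replicates 2 and 4 and DKO replicates 4 and 5, and Btg2 without control replicate 4 or any DKO library.

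Of 26 genes induced by antigen receptor signalling, 3 rose and none fell (median log2 fold change 0.28). An unadjusted p under 0.05 in edgeR's test, in either direction, was reached by 14, beside 16.0% of all genes. Estimates were above 0 for 17 of the 26, beside 48.6% of all genes. DESeq2 called 8 and limma-voom 7. Dusp6, which dephosphorylates ERK in the cytoplasm, was at 5.72, 5.05, 5.82 and 7.97 CPM in control and at 14.7, 14.1, 14.1, 13.4 and 14.7 CPM in DKO (adjusted p 0.00180 by edgeR's test, log2 fold change 1.21, SE 0.14). The cytokine gene Tnf rose by 1.23 on the log2 scale (SE 0.19, adjusted p 0.00759, edgeR), and Spry1, an inhibitor of receptor to ERK signalling, from 2.82 ± 0.849 to 5.89 ± 1.05 CPM (1.06, SE 0.23, adjusted p 0.0353, edgeR). Dusp6 and Tnf passed without each library in turn, while Spry1 passed without control replicate 1 only. The list count was 5 without control replicate 1, and 2 without control replicate 4 or any DKO library. Without control replicates 1 and 3 together it was 3, with a median log2 fold change of 0.14.

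The factors upstream did not pass in edgeR's test. Over all genes, 16.0% had an unadjusted p under 0.05 in that test. Of 13 SRF, ternary complex and CREB factor genes tested, 0 passed in edgeR (unadjusted p under 0.05 for 3, and 1 call each by DESeq2 and limma-voom). The smallest p belonged to Srf, at 37.5 ± 5.26 and 49.4 ± 2.84 CPM (log2 fold change 0.40, adjusted p 0.0752, edgeR), which passed without control replicate 1 (adjusted p 0.0368). Of 15 ERK, JNK and p38 kinase genes, 0 passed in edgeR (unadjusted p under 0.05 for 2, with 0 calls by DESeq2 and 2 by limma-voom), with Mapk14, which encodes p38 alpha, at the smallest p (0.26, adjusted p 0.139). Of 10 other AP-1 and bZIP genes tested, 0 passed in edgeR (unadjusted p under 0.05 for 2, and 2 calls each by DESeq2 and limma-voom). Jund had the smallest p, at 113.5 ± 20.7 and 149.2 ± 10.6 CPM (0.40, adjusted p 0.113, edgeR), passed without control replicate 1 (adjusted p 0.0278), and is uncertain because the sum of its strand columns was 4.93 times the unstranded count. Fosl1, Batf2 and Atf3 had too few counts to test.

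Mitotic, heat shock and myeloid genes were measured in the same libraries. Of 10 mitotic genes tested, 9 were higher in DKO (Aurkb, Birc5, Bub1, Ccna2, Ccnb2, Cdk1, Mki67, Plk1 and Top2a), at log2 fold changes of 0.94 to 2.14 and adjusted p from 0.0140 to 0.0468 (edgeR). Over all genes tested, 1.32% passed as higher in edgeR's test. DESeq2 called 10 of the mitotic genes and limma-voom 6. The edgeR count of 9 was 0 without control replicate 4, 3 without control replicate 3 or DKO replicate 3, 4 without DKO replicate 1 or 4, 5 without DKO replicate 5, and 1 without control replicates 1 and 3 together. Ccna2 and Plk1 share reads with genes on the opposite strand, with strand columns at 1.91 and 1.23 times the unstranded counts. With the summed columns the log2 fold change of Ccna2 was 0.95, beside 1.54 in the main fit, and that of Plk1 1.25, beside 1.30. Of 10 heat shock genes, 1 fell (Dnaja1, from 240.1 ± 46.6 to 150.3 ± 26.2 CPM, adjusted p 0.0407, edgeR, lost without any library other than control replicate 1 or 4 and DKO replicate 2) and none rose. Dnaja1 went against its list, where 7 of the 10 estimates were above 0 and the median log2 fold change was 0.34. An unadjusted p under 0.05 in edgeR's test was reached by 4 of the 10, beside 16.0% of all genes. The summed level of all 11 heat shock genes was 1957 to 2956 CPM in control and 2299 to 3694 CPM in DKO. The myeloid list, of which 8 of 14 genes exceeded 1 CPM, summed to 166.2 to 201.1 CPM in control and 117.2 to 127.6 CPM in DKO. It was led by Ctss (81.2 and 51.3 CPM), Itgam (58.9 and 38.1 CPM) and Cd68 (29.2 and 16.8 CPM). Lyz2 was at 2.43 and 5.85 CPM, where DKO replicate 1 held 13.6 CPM and the other DKO libraries 2.81 to 4.96 CPM. Cd14 was at 0.359 and 0.334 CPM. S100a8 had no count in control and 31 in DKO, of which 16 were in DKO replicate 5.

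The genes whose profile over the 9 libraries was nearest to that of Egr1, Nr4a1, Fos and Jun are given as a description. Likeness was the root mean square difference between 2 profiles of log2 CPM, each centred on its own mean, over 11537 other protein-coding genes. Nearest to Egr1 were Nuf2, a kinetochore gene (0.260), Cenpm, another kinetochore gene (0.291), and Mybl2, a cell cycle transcription factor (0.308), where the spread of Egr1 itself was 0.951. Nuf2 was at 3.38 and 12.4 CPM in control and DKO. Nearest to Nr4a1 (own spread 0.427) were Knstrn (0.164), Fbxo5 (0.167) and Lmnb2 (0.170), of which the first acts at kinetochores and the second inhibits the anaphase-promoting complex. For Fos (own spread 1.15) the nearest were Brsk2 (0.660), Tmem79 (0.680) and Map6d1 (0.691), and for Jun (0.682) Zfp30 (0.307), Lhpp (0.330) and Adssl1 (0.348).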

How the data were processed

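Per the labels, the molecule was polyA RNA (Qiagen RNeasy), prepared by Takara Smartseq v4 with Illumina Nextera Flex. The files the authors deposited hold raw counts by gene, unstranded and for either strand, 1 file per library. Trim Galore 0.6.0, STAR 2.7.8a and the build mm10 are named in the submitters' processing notes, while the gene annotation is not given in the sources used here. Either strand column held about the same (49.9 to 50.1% in column 1), so unstranded counts were used; these leave out reads shared by genes on opposite strands. Lines that name no gene stayed out of library sizes: by library 10.3 to 16.7% was unmapped, 5.80 to 6.79% multimapping, 4.01 to 5.20% in no feature and 4.97 to 5.31% ambiguous.

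Of 55471 identifiers, 55230 matched GENCODE M21 without the version. The test was the robust quasi-likelihood test of edgeR 4.0.16 under R 4.3.3 (TMM scaling, filterByExpr with a minimum count of 10), with Benjamini-Hochberg adjustment over 14918 genes. CPM use TMM-scaled library sizes of the tested genes. Every pair of libraries within a group differed beyond sampling noise (chi-square of counts). Alternatives used DESeq2 1.42.0, limma 3.58.1 (voom with quality weights), sva 3.50.0, other filters, summed strand columns, a replicate block and left-out libraries. Ratios and figures used Python 3.11.15, numpy 2.4.6, pandas 2.3.3, scipy 1.17.1 and matplotlib 3.10.9. The fits were tested on simulated data: of 200 changed genes among 14918, edgeR recovered 58% of those changed 2-fold and 79% of those changed 3-fold, and 9.87% of its calls were false. For DESeq2 26.9% of calls were false, each at an adjusted p threshold of 0.05. The simulated counts were drawn for each gene independently in a single run, with no library set apart from its group. These rates may therefore not hold for the real libraries.

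Named were the 10 members, both targeted genes, each gene of a related list past the threshold (or else the one with the smallest p), and the 3 genes nearest in profile to Egr1, Nr4a1, Fos and Jun. The members and lists were chosen with earlier results of these data known.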

Additional observations from a re-analysis of the deposited data

Results flagged for a closer look

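Of 74 groups of 4 or 5 values checked for a single library far from the rest, 5 were flagged by Dixon's test, where chance flags about 1 in 20 groups. Nr4a1 was at 5.40 CPM in control replicate 3, against 8.52 to 8.64 CPM in the other controls. Jun was at 18.3 CPM in DKO replicate 5, and the next DKO library was at 8.32 CPM. The mitotic kinase gene Aurkb was at 40.1 CPM in the same library, against 16.7 to 23.1 CPM in the other DKO libraries. In control replicate 1 the log2 ratio of Fos to Jun was -1.25, against -3.72 to -3.53 in the other controls. The log2 ratio of Nr4a1 to Nr4a3 was 5.89 in that library, against 4.09 to 4.36.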

How the results depend on the processing

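Egr1 passed the threshold in 17 of 18 alternatives, with log2 fold changes of 1.15 to 1.84 over all 18, and none of the other 9 members passed in any that gave it a value (Egr3, Nr4a3 and Fosb had none with a minimum of 1 CPM in 4 libraries). The number of members past the threshold was 1 without each library in turn. With the replicate number as a block it was 0 (Egr1 at adjusted p 0.0771, edgeR), and 67 of all genes passed. The same block left 1 of 3 calls among the receptor-induced genes (Dusp6; Tnf at adjusted p 0.0676) and 0 among the EGR partners, the other immediate early genes and the mitotic genes. The labels do not say that numbers pair libraries, and the deviations of same-numbered libraries correlated at -0.117 to 0.0124, and no library correlated best with its own number. Over all genes the count of 422 became 1010 with DESeq2, 996 with limma-voom, 1248 with 1 surrogate variable, and 179 to 749 without single libraries. The estimates near 0 changed sign: Fos to -0.18 and Junb to -0.056 with the block, and Junb to -0.14 without control replicates 1 and 3. Without single libraries Fos ranged from -0.43 to 1.19, Junb from -0.078 to 0.165 and Nr4a2 from -0.298 to 0.048. The difference in the Egr1 to Egr3 ratio was -0.12 with 0.5 counts added and -0.39 without control replicates 1 and 3, and ranged from -0.52 to 0.74 without single libraries. The cause of these moves was not tested. Egr3, Nr4a3 and Fosb held at most 55 counts in a library; the part of depth in their wide intervals was not tested.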
